A study of Mus musculus with 4 samples.

Results

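The mitosis genes are a list of 42 mouse genes whose products carry a cell from the onset of mitosis to the separation of its daughters. Members were found by symbol, through array probe sets that the platform annotation assigns to exactly 1 gene, and each gene was represented by its brightest probe set. Espl1 (separase) and Cdca8 (borealin) had no such probe set, so 40 of the 42 genes were measured, among 12394 genes on the array. All 40 passed a filter on low values, which asked that the highest of a gene's 4 log2 levels reach 4.63 and which 8687 genes of the array passed. The rule uses no difference between arrays, but the list was chosen with earlier results of these data known.

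Expression was profiled in fibroblasts cultured from the mammary glands of FVB/N mice aged 9 weeks, with 1 Affymetrix array for each of 4 groups. The normal Ets2-present group had the genotype Ets2db/loxP, and the normal Ets2-null group Fsp-cre;Ets2db/loxP. The PyMT Ets2-present group was PyMT;Ets2db/loxP, and the PyMT Ets2-null group PyMT;Fsp-cre;Ets2db/loxP. All groups therefore carried 1 conventional knockout allele of Ets2, a transcription factor of the ETS family, beside 1 conditional allele, and no group was wild type. Cre, expressed from the fibroblast-specific protein promoter, was present only in the Ets2-null groups, so the presence of Cre and the loss of Ets2 cannot be told apart. PyMT, the polyoma virus middle T oncogene, was expressed in the mammary epithelium from the MMTV promoter and not in the fibroblasts themselves. All fibroblasts had been grown in serum-containing medium before RNA extraction. Each group thus has n = 1, and whether the RNA of an array came from 1 animal or from a pool was not stated. With 1 array a group, every difference below is a difference between single arrays, with no replicate error and no p-value. The comparisons address how fibroblasts from oncogene-bearing glands differ from normal ones, and what the loss of Ets2 changes in each.

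In a dividing cell, Cdk1 bound to A- and B-type cyclins starts mitosis, condensin compacts the chromosomes, and kinesins and their partners build the spindle. Kinetochores attach chromosomes to microtubules, and the spindle checkpoint holds the anaphase-promoting complex inactive until all are attached; the complex, activated by Cdc20, then triggers chromosome separation, and cytokinesis follows. The transcripts of many of these genes accumulate late in the cell cycle, and their summed level is widely used as a measure of how many cells in a population are cycling. Their promoters often carry a short element near the transcription start called CHR (cell cycle genes homology region), which MuvB complexes bind, and CCAAT boxes bound by the factor NF-Y. Fibroblasts are quiescent in most tissue and enter the cycle in culture with serum.

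All arrays carried the fibroblast signature. Each of 10 fibroblast markers was at or above the filter level on each array, with a summed linear signal of 41793 to 52155. Both PyMT arrays were below both normal arrays for 4 of the 10 (Lum, Dcn, Thy1 and Pdgfra) and above them for 3 (Col3a1, Fn1 and Pdgfrb), genes that were named after their values were seen. Lum, a matrix proteoglycan, read 9.26 and 11.62 in normal and 6.73 and 5.82 in PyMT fibroblasts, while Fn1 (fibronectin) read 12.23 and 12.03 against 12.42 and 12.87. Lymphocyte markers passed the filter in 0 of 5 genes, endothelial markers in 2 of 8, and epithelial markers in 5 of 11, and the summed epithelial signal was 236 to 405. Cdh1, the defining epithelial cadherin, was under the filter level on all arrays, while Krt18 was higher on the normal arrays and Krt19 on the PyMT arrays. Krt14 and Epcam reached the filter level only on the PyMT Ets2-null array, at 4.85 and 5.1, and Krt5 was above it on all arrays. Macrophage markers differed unevenly with the oncogene. In the Ets2-present pair 7 of the 8 that passed the filter were higher on the PyMT array, with a median difference of 0.70. In the Ets2-null pair 4 were higher and 4 lower, with a median of 0.11. The largest of these were Lyz2 at 1.98, Cd68 at -1.54, Ptprc at 1.46 and Cd14 at -1.37. Cd68 and Cd14 were under the filter level on the PyMT array of that pair, and Ptprc on the normal one. The summed signal over all 10 genes was 473 and 429 on the normal arrays, with and without Ets2, and 1099 and 800 on the PyMT arrays. Between 4 and 6 of the 10 were at or above the filter level on any array. Lyz2 (lysozyme) read 7.39, 7.11, 9.13 and 9.09 in that order, Csf1r 6.95, 6.54, 8.12 and 6.19, and Adgre1, a defining surface marker of mouse macrophages, 4.45, 4.27, 6.17 and 4.52, so that only its PyMT Ets2-present value reached the filter level. The Ets2 probe set read 11.86, 11.89, 11.21 and 11.22 in that order, but its place relative to the deleted exons was not known, so it checks nothing about the deletion. Correlations between arrays over all probe sets were between 0.959 and 0.985, and the 3 that involve the PyMT Ets2-null array were the lowest, at 0.959 to 0.969.

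Mitosis genes were lower in fibroblasts from PyMT-bearing glands than in normal fibroblasts, whether or not Ets2 was present. In Ets2-present fibroblasts all 40 genes were lower on the PyMT array, as were 50.4% of all genes. The members had a median log2 difference of -1.26, or 2.39-fold, against -0.01 over all 8687 genes. At least 2-fold lower were 31 of the 40, against a background of 6.23% of all genes, and at least 1.5-fold lower were 36 of the 40, against 14%. In Ets2-null fibroblasts, which were measured on a separate pair of arrays, 39 of 40 were lower, as were 47.5% of all genes. The members had a median of -1.20 or 2.29-fold, against 0.05 over all genes. Again 31 were at least 2-fold lower (background 11.2%), and 38 at least 1.5-fold lower (21.2%). None of the 40 was at least 2-fold higher in either pair, where the background was 5.42% with Ets2 and 9.69% without, nor at least 1.5-fold higher (13% and 21.1%). RNA from bulk cultures was measured, so fewer cycling cells and less of each transcript per cycling cell cannot be told apart. In the Ets2-present pair 7 of 8 macrophage markers were higher on the PyMT array, where the mitosis genes were lower. In the Ets2-null pair 4 of the markers were higher and 4 lower, and their summed signal was 800 on the PyMT array against 429 on the normal one. The part of macrophage content in the mitosis gene difference was not tested in either pair.

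The arrays separated by oncogene for nearly every member. In 39 of 40 genes both PyMT arrays were below both normal arrays, as they were in 23.3% of all genes, and in 19 genes the highest PyMT value was at least 2-fold below the lowest normal value, as in 2.34% of all genes. Nek2, a centrosomal kinase, was the exception, with log2 levels of 4.35 and 4.69 on the normal arrays and 4.05 and 4.85 on the PyMT arrays. Of the 31 genes at least 2-fold lower in each pair, 26 were shared, which is 83.9% of each set. Over all genes, 541 and 970 were at least 2-fold lower, and the 259 shared ones were 47.9% and 26.7% of those. The 4 mitosis genes at least 2-fold lower in neither pair were Nek2, Melk, Ndc80 and Smc4. The difference was larger in Ets2-present than in Ets2-null fibroblasts for 25 of the 40 genes (62.5%), and the corresponding value was lower in the Ets2-present pair for 53% of all genes.

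**Figure D1:**
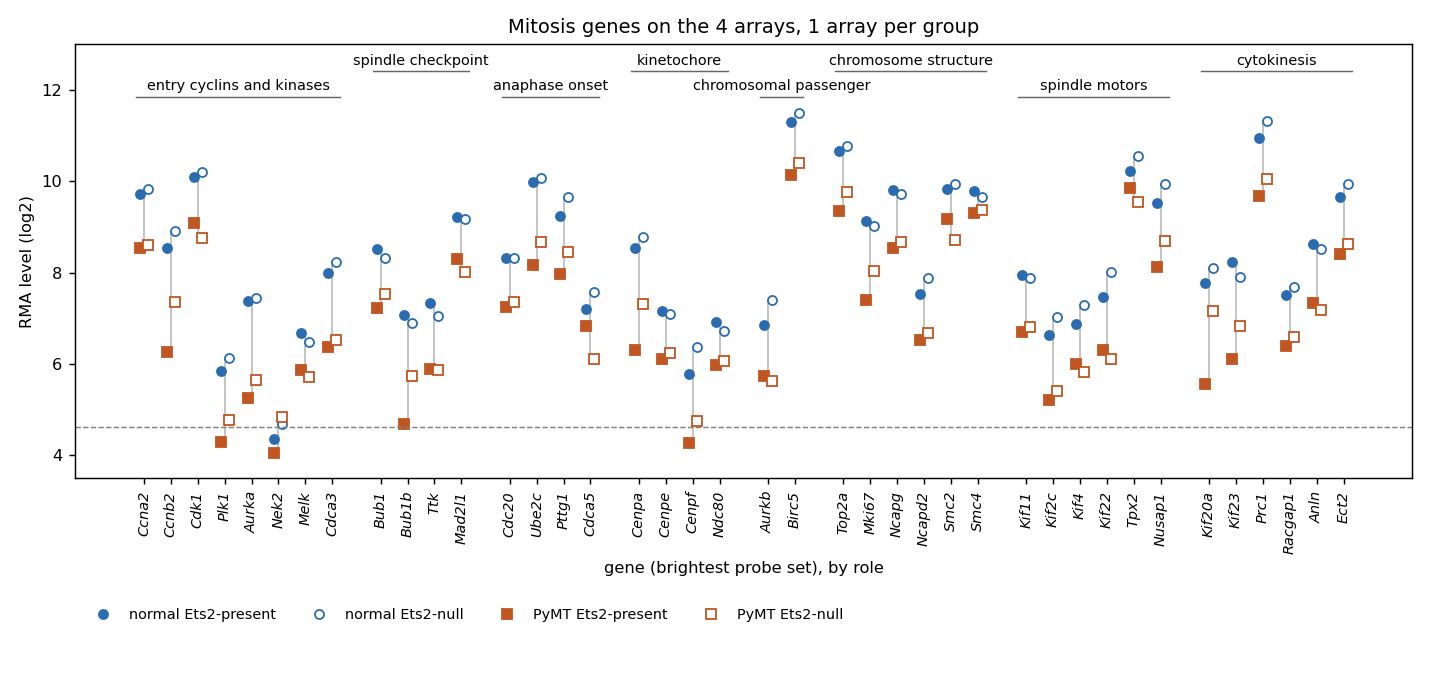
Log2 level (RMA) of each of the 40 measured mitosis genes on the 4 arrays, grouped by role, with 1 point per gene and array. Both PyMT points lie below both normal points for every gene but Nek2.

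**Figure D2:**
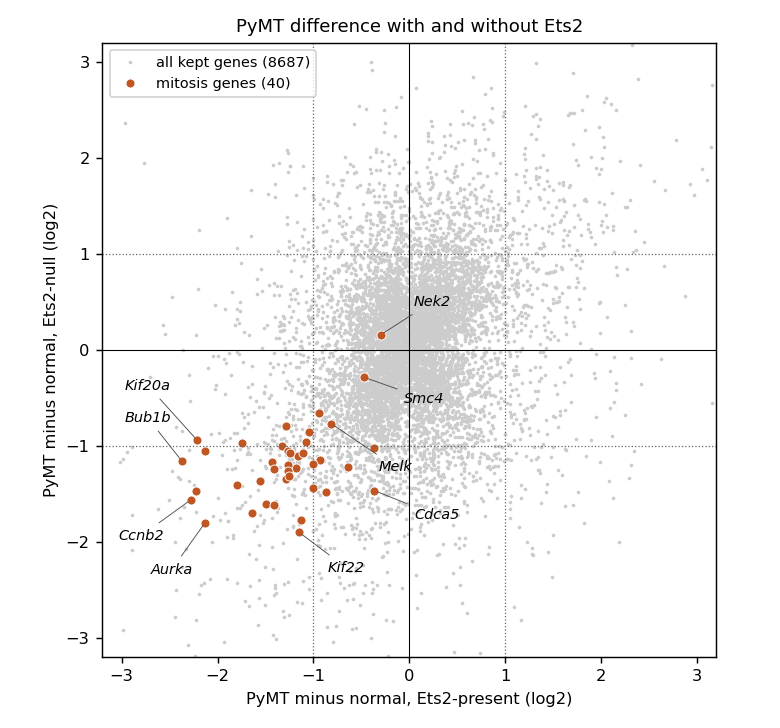
Log2 PyMT minus normal difference in Ets2-null fibroblasts against that in Ets2-present fibroblasts, with 1 point per gene. The mitosis genes occupy the lower left, with medians of -1.26 and -1.20; 86 other genes lie outside the axes.

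The promoters of the mitosis genes share short sequences that the list itself did not use, and a few are shown to let these be seen. RefSeq promoter windows on mouse build GRCm38.p6, running from 250 bases before to 50 bases after the transcription start, were matched by symbol to 35 of the 40 genes. Ccna2, Aurkb, Smc4, Tpx2 and Kif20a had no window. In the sequences that follow, the 120 bases before the start are printed 5′ to 3′ on the strand of the gene, and capitals mark matches to the CHR forms and to the NF-Y box.
Cdk1 (chr10:69352913-69353032, minus strand): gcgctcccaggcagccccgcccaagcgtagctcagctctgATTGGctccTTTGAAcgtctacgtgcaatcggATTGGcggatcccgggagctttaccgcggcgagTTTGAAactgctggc
Cdc20 (chr4:118437344-118437463, minus strand): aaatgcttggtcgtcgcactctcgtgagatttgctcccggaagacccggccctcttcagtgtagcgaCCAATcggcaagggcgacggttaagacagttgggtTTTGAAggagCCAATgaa
Ube2c (chr2:164769809-164769928, plus strand): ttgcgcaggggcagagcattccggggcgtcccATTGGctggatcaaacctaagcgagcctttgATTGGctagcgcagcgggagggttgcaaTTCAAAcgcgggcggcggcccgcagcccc
Kif11 (chr19:37376262-37376381, plus strand): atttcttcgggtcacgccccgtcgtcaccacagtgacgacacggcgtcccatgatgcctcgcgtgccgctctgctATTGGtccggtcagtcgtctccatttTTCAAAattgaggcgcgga
Kif22 (chr7:127042421-127042540, minus strand): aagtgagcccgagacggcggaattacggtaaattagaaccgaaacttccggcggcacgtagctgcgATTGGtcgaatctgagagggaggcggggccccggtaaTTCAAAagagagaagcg
Ncapg (chr5:45669805-45669924, plus strand): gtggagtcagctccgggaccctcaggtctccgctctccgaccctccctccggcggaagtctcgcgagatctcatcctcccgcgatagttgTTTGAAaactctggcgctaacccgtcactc
Prc1 (chr7:80294356-80294475, plus strand): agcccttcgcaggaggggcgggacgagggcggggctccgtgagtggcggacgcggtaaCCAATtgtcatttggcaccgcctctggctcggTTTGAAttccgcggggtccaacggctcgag
Top2a (chr11:99024190-99024309, minus strand): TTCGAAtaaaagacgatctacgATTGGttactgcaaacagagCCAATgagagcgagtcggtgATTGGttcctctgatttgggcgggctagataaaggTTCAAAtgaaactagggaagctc
Nek2 (chr1:191821353-191821472, plus strand): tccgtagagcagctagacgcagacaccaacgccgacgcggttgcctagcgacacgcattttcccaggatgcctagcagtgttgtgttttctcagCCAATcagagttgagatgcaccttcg
Birc5 (chr11:117849117-117849236, plus strand): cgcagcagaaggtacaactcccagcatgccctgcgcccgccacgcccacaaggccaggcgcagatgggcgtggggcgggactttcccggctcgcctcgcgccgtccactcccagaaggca
Cdk1 to Top2a show the first CHR form shortly before the start, with NF-Y boxes upstream of it or nearby. In many other members the match near the start lay after it, outside the printed bases, as in Bub1b at 41, Aurka at 33 and Plk1 at 31. The box of Ncapg, at -176 from the start, lies outside the printed bases. Prc1 had 2 windows, which both held matches, and the second is shown. Nek2 and Birc5 are shown as members without the first CHR form.

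The first CHR form searched was TTTGAA, together with its reverse complement TTCAAA. It was found in the windows of 27 of the 35 members (77.1%), in 14.3% of the 7061 genes that passed the filter and had a window, and in 17.9% of all 32851 windows. The second form, TTCGAA, which reads the same on both strands, was found in 3 members (8.57%), in 2.65% of the same genes and in 1.56% of all windows. The NF-Y box, searched as CCAAT and as its reverse complement ATTGG, was found in 26 members (74.3%), in 42.9% of the same genes and in 37.4% of all windows. Matches of different forms could share end letters. The first CHR form and the NF-Y box occurred together in 23 members (65.7%), in 6.95% of the same genes and in 6.95% of all windows. In 24 of the 27 members, a match to the first form lay from 50 bases before the start onwards. Positions were not counted in other genes, so this count has no background beside it. Genes, members and others alike, were counted if any of their windows held the match, so the share over genes is the one to set beside the members. These are matches of letters, and no binding was measured.

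In other cell cycle lists the first CHR form was found in 42.9% of 35 other mitosis genes with a window, 41.7% of 12 regulators of the E2F and MuvB families, 14.7% of 34 replication genes and 10% of 10 G1 regulators. The NF-Y box was found in 62.9%, 50%, 52.9% and 60% of those lists, in the same order. Among 12 genes of the anaphase-promoting complex it was found in 25%. The 8 members without the first CHR form were Nek2, Melk, Bub1, Mad2l1, Pttg1, Cenpe, Birc5 and Nusap1. Their median PyMT differences were -1.11 with Ets2 and -0.98 without. The medians of the 27 members with the form were -1.29 and -1.32. Outside the cell cycle lists, 450 genes that passed the filter held both the first CHR form and the NF-Y box, and their median PyMT difference in Ets2-present fibroblasts was -0.10, against 0.02 in 3466 genes with neither. In Ets2-null fibroblasts both medians were 0.08. At least 2-fold lower were 9.56% of the former and 4.96% of the latter in Ets2-present fibroblasts, and 11.6% and 9.9% in Ets2-null fibroblasts. The shares are given as a description and were not tested.

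**Figure D3:**
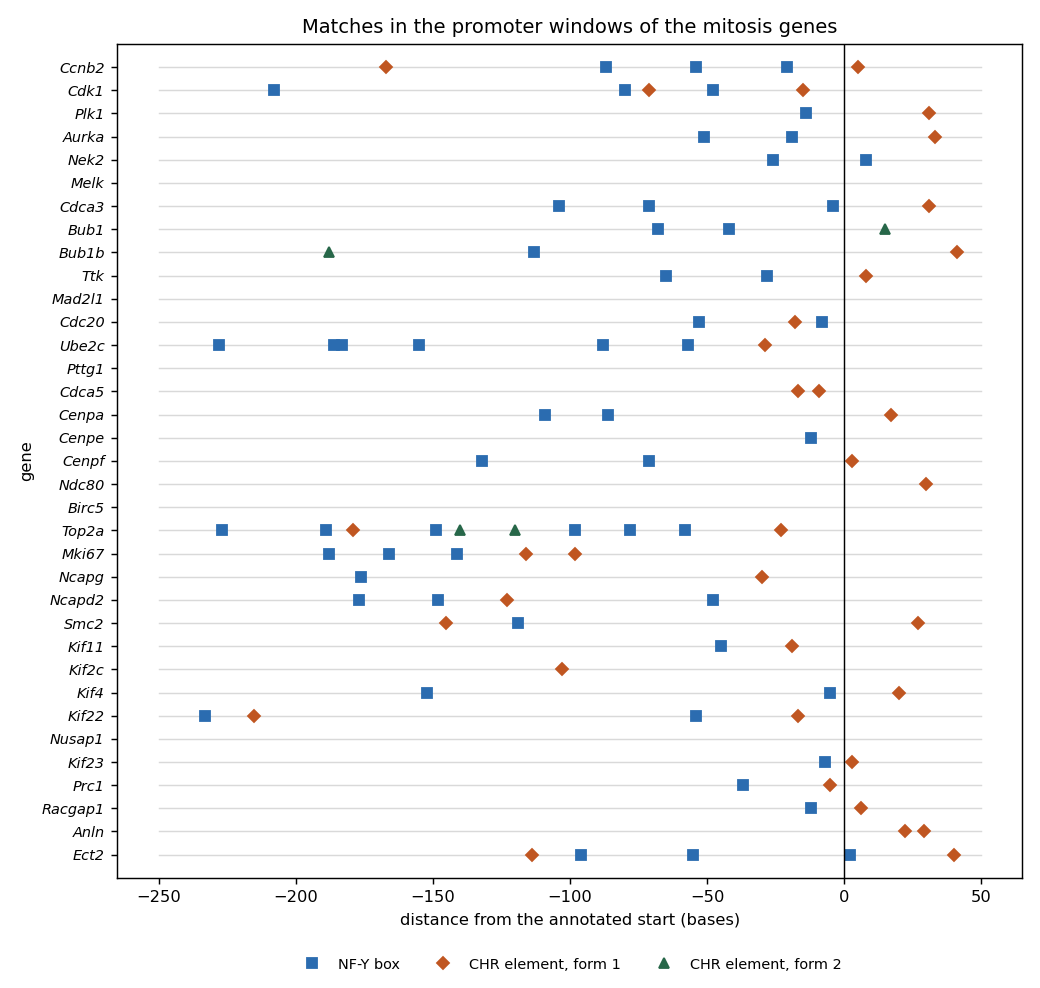
Position of each match relative to the transcription start (0) in the promoter windows of the mitosis genes, in bases, with 1 row per gene. Of the 27 genes with the first CHR form, 24 held a match from 50 bases before the start onwards, a count not made for other genes.

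Cyclins and kinases of mitotic entry had median PyMT differences of -1.37 with Ets2 and -1.40 without. Ccnb2, which encodes cyclin B2, a partner of Cdk1, read 8.54 and 8.91 on the normal Ets2-present and Ets2-null arrays and 6.27 and 7.35 on the PyMT ones, and was 4.85-fold and 2.96-fold lower in the oncogene-bearing groups. Aurka, the centrosomal kinase Aurora A, read 7.39 and 7.45 in normal and 5.25 and 5.64 in PyMT fibroblasts, 4.39-fold and 3.5-fold lower. Cdk1 itself was among the smallest of the 2-fold differences with Ets2, at 10.08 and 10.19 against 9.08 and 8.76, or 2.01-fold and 2.71-fold lower. Plk1, the polo kinase that acts from mitotic entry to cytokinesis, was at 5.85 and 6.14 in normal and at 4.29 and 4.77 in PyMT fibroblasts, the former of which is under the filter level. Cdca3, which promotes destruction of the Cdk1 inhibitor Wee1, was 3.11-fold and 3.26-fold lower. Ccna2, encoding cyclin A2, was 2.28-fold and 2.35-fold lower. Melk, a kinase of cycling cells, came to -0.81 and -0.77 and stayed under the 2-fold line.

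Spindle checkpoint genes had medians of -1.36 and -1.16. Bub1b, whose product BubR1 inhibits the anaphase-promoting complex, showed the largest difference of any member with Ets2. Its level was 7.06 and 6.89 on the normal arrays but 4.69 on the PyMT Ets2-present and 5.73 on the PyMT Ets2-null array, or 5.17-fold and 2.24-fold lower. Ttk, the kinase that starts checkpoint signalling, was at 7.34 and 7.04 against 5.90 and 5.87. Bub1, a kinetochore kinase, was -1.28 with Ets2 and -0.79 without it, and Mad2l1, which binds Cdc20, was -0.93 and -1.15. A dimmer probe set of Bub1, which reached the filter level only on the normal Ets2-null array, gave -0.63 and -1.62. The order of the Bub1 differences thus depended on the probe set. By the brightest probe sets, each of the 4 checkpoint genes was lower in PyMT fibroblasts in both pairs, and 2 of them past 2-fold in both.

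Genes of anaphase onset had medians of -1.17 and -1.31. Ube2c, the ubiquitin-conjugating enzyme of the anaphase-promoting complex, read 9.97 and 10.08 in normal and 8.18 and 8.67 in PyMT fibroblasts, or 3.48-fold and 2.66-fold lower. Cdc20, its activator, read 8.32 and 8.33 against 7.25 and 7.37, and was 2.11-fold and 1.95-fold lower. Pttg1 (securin), the inhibitor of separase, was 2.40-fold and 2.30-fold lower. Cdca5 (sororin), which stabilises cohesin, differed between the pairs at 7.19 and 6.83 with Ets2, a difference of -0.37, and 7.58 and 6.11 without, a difference of -1.47. A second probe set of Cdca5 gave -1.46 and -0.75, so the order of these differences depended on the probe set.

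Kinetochore genes had medians of -1.27 and -1.16. Cenpa, the histone H3 variant that marks centromeres, read 8.54 and 8.77 in normal and 6.32 and 7.30 in PyMT fibroblasts, 4.66-fold and 2.77-fold lower. Cenpf, a kinetochore protein of the late cell cycle, was 2.82-fold and 3.05-fold lower, with its PyMT Ets2-present value of 4.28 under the filter level. Cenpe, a motor that carries chromosomes to the spindle equator, was at -1.05 and -0.86, and Ndc80, which binds microtubule ends, at -0.94 and -0.66. Of the chromosomal passenger complex, which corrects faulty attachments, Aurkb (Aurora B) read 6.86 and 7.41 in normal against 5.74 and 5.64 in PyMT fibroblasts, or 2.18-fold and 3.41-fold lower. Birc5 (survivin), of the same complex, was 2.24-fold and 2.16-fold lower, from 11.30 and 11.50 to 10.14 and 10.39.

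Genes of chromosome structure had medians of -1.14 and -1.03. Mki67, which keeps mitotic chromosomes apart and is the usual marker of cycling cells, read 9.14 and 9.01 in normal against 7.39 and 8.04 in PyMT fibroblasts, or 3.34-fold and 1.96-fold lower. Top2a, the topoisomerase that untangles sister chromatids, was 2.51-fold and 2.00-fold lower, at 10.66 and 10.77 against 9.34 and 9.77. The condensin subunits ranged from Ncapg at -1.27 and -1.06, through Ncapd2 at -1.01 and -1.19 and Smc2 at -0.64 and -1.22, to Smc4 at -0.47 and -0.29. Smc4 remained at 9.31 and 9.37 in PyMT fibroblasts against 9.78 and 9.65, and its 2 other probe sets past the filter ran from -0.86 to -0.41 over both pairs. Near the 2-fold line, Cdk1 and Ncapd2 (both -1.01 with Ets2) and Top2a (2.00-fold without) lay inside it, and Mki67 (-0.97) and Cdc20 (-0.96) outside it.

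Spindle motors and assembly factors had medians of -1.20 and -1.36. Kif22, a chromosome-arm motor, was the largest difference without Ets2, with 7.46 and 8.02 on the normal arrays and 6.30 and 6.12 on the PyMT arrays, or 2.22-fold and 3.73-fold lower. Kif11, the motor that pushes spindle poles apart, was 2.38-fold and 2.12-fold lower, and Kif2c, which takes microtubules apart at kinetochores, was 2.65-fold and 3.08-fold lower. Kif4 (chromokinesin), Tpx2 (an activator of Aurora A) and Nusap1 (a microtubule bundler) came to -0.87, -0.37 and -1.41 with Ets2 and to -1.48, -1.02 and -1.24 without. A dimmer probe set of Kif2c went the other way without Ets2, from 3.88 to 5.59.

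Cytokinesis genes had medians of -1.28 and -1.17, and all 6 were at least 2-fold lower with Ets2. Kif20a, a motor of the central spindle, read 7.78 and 8.10 in normal and 5.57 and 7.16 in PyMT fibroblasts, or 4.64-fold and 1.92-fold lower. Kif23, also a motor of the central spindle, read 8.23 and 7.90 against 6.11 and 6.84, or 4.37-fold and 2.08-fold lower. By these probe sets both were lowest on the PyMT Ets2-present array. A second probe set of Kif23 read 5.92 and 5.93 in normal and 4.39 and 3.76 in PyMT fibroblasts, the latter 2 under the filter level. Its PyMT differences were -1.54 and -2.17, so the order for Kif23 depended on the probe set. Prc1, which bundles central spindle microtubules, was 2.41-fold and 2.40-fold lower. Racgap1 and Ect2, which control the GTPase RhoA at the furrow, and Anln, an actin-binding scaffold there, lay between -1.35 and -1.08 in both pairs.

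Other probe sets of the same genes gave a check on these levels. Beside the brightest, 28 probe sets covered 19 of the 40 genes, and 21 of them, in 15 genes, passed the filter. In Ets2-present fibroblasts all 21 were lower in PyMT, 12 at least 2-fold, with a median of -1.20. In Ets2-null fibroblasts 19 of 21 were lower, 12 at least 2-fold, with a median of -1.07. The exceptions were a probe set of Kif2c (1.71) and one of Pttg1 (0.42). Over 3378 genes of the array, the SD of the disagreement between the 2 brightest probe sets was 0.51 with Ets2 and 0.70 without, which is the only measure of error at hand and covers the probes, not the cultures.

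Ets2 status gave much smaller differences in these genes than the oncogene did. In normal fibroblasts the Ets2-null array was higher for 27 genes and lower for 13, where 52.7% of all genes were lower. The median was 0.14 against -0.02 over all genes. None was at least 2-fold higher (background 3.02%) or lower (2.41%), and at 1.5-fold 1 was higher (8.08%), namely Cenpf at 0.60, and 0 were lower (7.66%). In PyMT fibroblasts 29 were higher and 11 lower without Ets2, where 48.7% of all genes were lower. The median was 0.18 against 0.02. At least 2-fold higher were 3 of the 40 (7.64%), Kif20a at 1.59, Ccnb2 at 1.08 and Bub1b at 1.04, and 0 were at least 2-fold lower (7.77%). At 1.5-fold there were 7 higher (16.3%) and 1 lower (16.9%), the latter being Cdca5 at -0.72. The counts at 2-fold and 1.5-fold were near or under the background of all genes. The SD between probe sets was 0.48 and 0.68 for the 2 differences.

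The Ets2 difference in PyMT fibroblasts minus that in normal fibroblasts had a median of 0.09 over the members and 0.04 over all genes. At least 2-fold higher in this comparison were 3 of the 40 (background 10.2%), Kif20a at 1.27, Bub1b at 1.21 and Kif23 at 1.07, and 1 was at least 2-fold lower (11.2%), Cdca5 at -1.10. Kif20a and Bub1b, with 1 probe set each, were lowest on the PyMT Ets2-present array. A second probe set of Kif23 gave Ets2 differences of 0.01 in normal and -0.62 in PyMT fibroblasts, where the brightest one gave -0.34 and 0.73, and one of Cdca5 gave -0.32 and 0.39, where the brightest one gave 0.38 and -0.72.

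**Figure D4:**
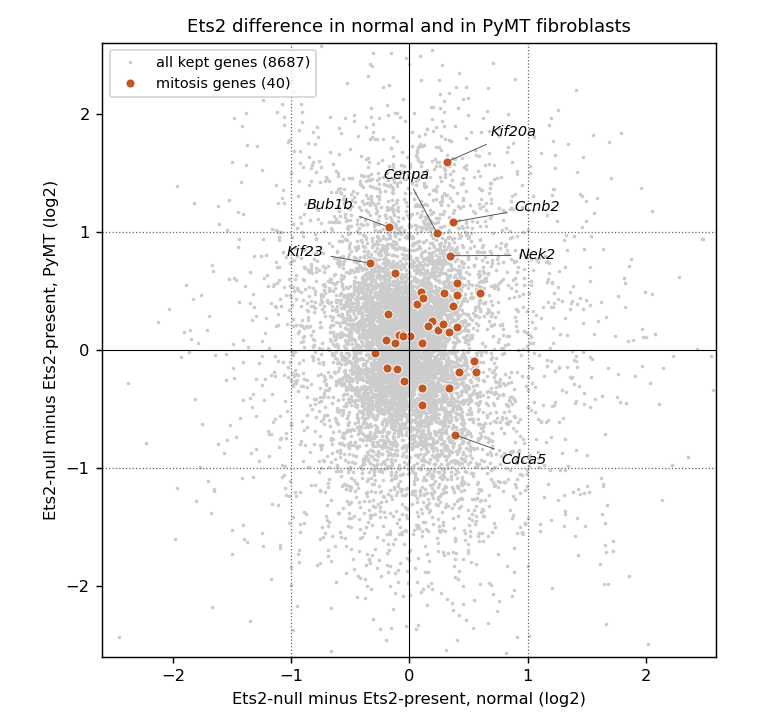
Log2 Ets2-null minus Ets2-present difference in PyMT fibroblasts against that in normal fibroblasts, with 1 point per gene. The mitosis genes scatter around medians of 0.14 and 0.18, with Kif20a highest at 1.59 in PyMT fibroblasts; 49 other genes lie outside the axes.

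Genes of the same pathways outside the list were compared in the same way. Of 44 other mitosis genes, 42 were lower with the oncogene in each pair, with medians of -0.90 and -1.02. Of all genes, 50.4% were lower with Ets2 and 47.5% without. At least 2-fold lower were 16 with Ets2 (background 6.23%) and 22 without (11.2%). Examples were Hmmr, a spindle-associated protein, at -1.52 with Ets2, Aspm, a spindle pole protein, at -1.51, and Mad1l1, the checkpoint partner of Mad2, at -1.83 and -1.93. Both PyMT levels of Mad1l1, 3.7 and 3.6, were under the filter level. Parts of the machinery that are present through much of the cell cycle gave smaller differences. Over 13 genes of the anaphase-promoting complex and its regulators the medians were -0.29 and -0.34. In either pair 0 of them were at least 2-fold lower, which for 13 genes is near the background. Over 9 cohesin genes the medians were -0.28 and -0.03. Among 17 E2F and MuvB regulators the medians were -0.31 and -0.12. With Ets2, 1 gene was at least 2-fold lower (background 6.23%), E2f4 at -1.11. The PyMT Ets2-present level of E2f4, 3.86, was under the filter level. Without Ets2, 2 were at least 2-fold lower (11.2%), Foxm1, an activator of mitotic genes, at -1.26 and the pocket protein Rbl1 at -1.48. In the other direction 1 was at least 2-fold higher (9.69%), the pocket protein Rbl2 at 2.00-fold. For 17 genes these counts are near the background. The PyMT Ets2-null level of Foxm1, 4.1, was under the filter level.

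Replication genes, a list that includes origin licensing genes, were at least 2-fold lower with the oncogene mainly in the Ets2-null pair. Of 41 that passed the filter, 1 was at least 2-fold lower with the oncogene in Ets2-present fibroblasts (background 6.23%), Tk1 (thymidine kinase) at -1.89. The median there was -0.39. In Ets2-null fibroblasts 21 were at least 2-fold lower (11.2%), with a median of -1.04. In PyMT fibroblasts 9 were at least 2-fold lower without Ets2 (background 7.77%), led by the origin licensing genes Cdc6 at -2.15 and Cdt1 at -2.08. The median of the replication genes there was -0.53, where the mitosis genes had a median of 0.18. The difference of Ets2 differences had a median of -0.56 in replication genes. G1 cyclins and inhibitors had medians of -0.26 and -0.23 for the oncogene. In PyMT fibroblasts without Ets2, Ccnd1 (cyclin D1) was higher by 2.42, Cdkn2a by 1.96 and Cdkn2d by 1.18, while Ccne2 (cyclin E2) stood at -1.53. The PyMT Ets2-present level of Cdkn2a, 3.6, was under the filter level. No test was made of the difference between lists.

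**Figure D5:**
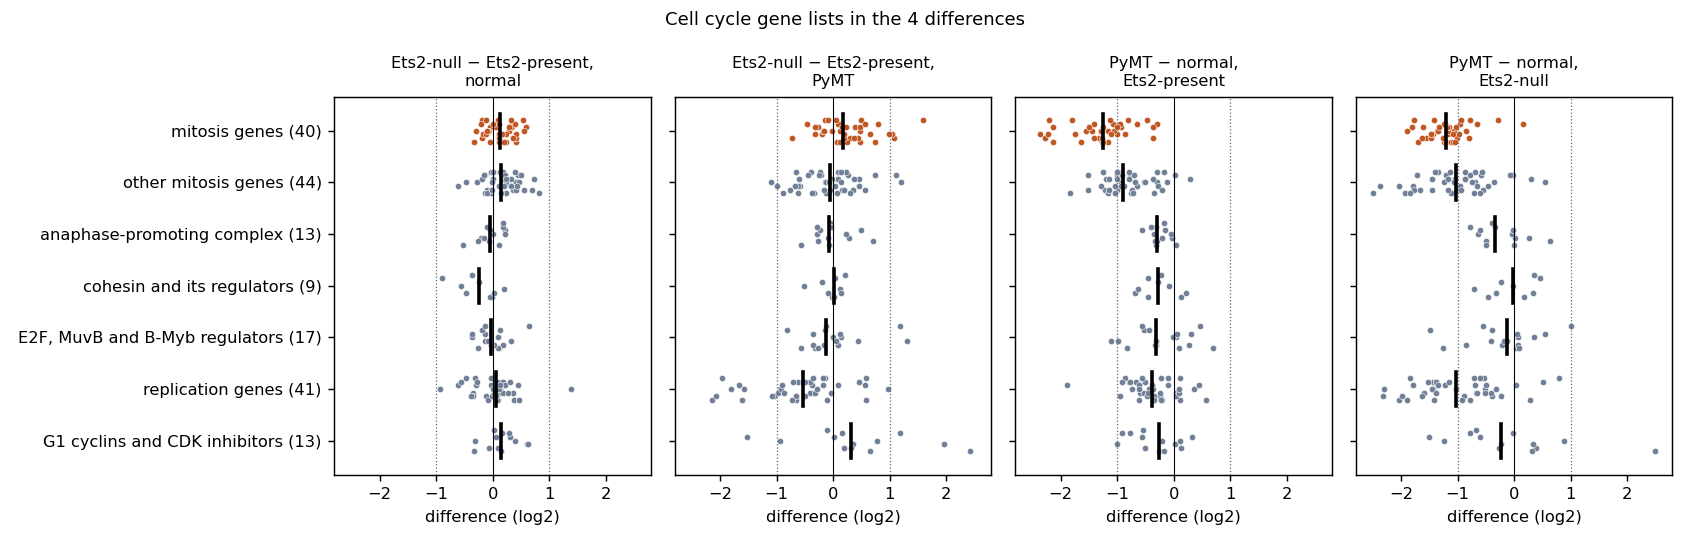
Log2 differences of the genes of each cell cycle list, with 1 point per gene, a line at the median of the list, and the number of genes beside its name. For the oncogene the mitosis genes lie lowest in Ets2-present fibroblasts, with a median of -1.26 against -0.39 for replication genes.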

How the data were processed

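Total RNA from 4 cultures of mammary fibroblasts was hybridised to Affymetrix mouse arrays, 1 array a group. The deposited table holds log2 levels for 22690 probe sets, which the authors computed by RMA (named in the submitters' processing notes, version not given in the sources used here); RMA corrects background, normalizes between arrays and summarises probes, so that levels of different probe sets are not comparable. Of the probe sets, 20393 had 1 gene symbol in the platform annotation, 691 several and 1606 none. Those with 1 symbol gave 12394 genes, each taken as its brightest probe set by mean, and 8687 passed a filter at 4.63, the 40th percentile of the table. Log2 differences between single arrays were counted by direction and at 2-fold and 1.5-fold, with Python 3.11.15, pandas 2.3.3 and numpy 2.4.6, and limma 3.58.1 for the alternative normalizations; scripts were tested on simulated data. Every listed mitosis gene is named, and at most 4 genes a difference from other lists, those at least 2-fold apart and largest in size. The members and lists were chosen with earlier results of these data known. Alternatives tried were other filters, probe set rules, normalizations and folds. Precision is limited by the number of arrays.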

Additional observations from a re-analysis of the deposited data

Results flagged for a closer look

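For 16 of the 40 mitosis genes the Ets2-null minus Ets2-present difference had opposite signs in normal and in PyMT fibroblasts. That is 40% of the members, against 51.4% of all 8687 genes. With 1 array a group this difference between the pairs was not tested. On the log2 scale, the PyMT value minus the normal value was 1.21 for Bub1b, 1.07 for Kif23, 0.77 for Mki67, 0.49 for Bub1, 0.28 for Ndc80, 0.21 for Ncapg, 0.20 for Cenpe, 0.18 for Smc4 and 0.17 for Kif11. It was -1.10 for Cdca5, -0.75 for Kif22, -0.65 for Tpx2, -0.64 for Aurkb, -0.61 for Kif4, -0.58 for Smc2 and -0.43 for Cdk1. Probe sets of the same gene disagreed with an SD of 0.48 in the normal and 0.68 in the PyMT Ets2 difference.

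Nek2 was the only member whose oncogene difference changed sign, at -0.30 with Ets2 and 0.16 without, a difference of 0.46 (0.455 before rounding) that was not tested, where 39.6% of all genes changed sign; 2 of its 4 levels were under the filter level.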

How the results depend on the processing

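With 1 array a group there is no replicate error, and no value here carries a p-value. No paired analysis was possible because each group has 1 array and the labels give no replicate numbers. Over the alternatives, the median of the mitosis genes stayed between -1.26 and -1.09 for the oncogene difference with Ets2, between -1.20 and -1.11 without, between 0.10 and 0.20 for the Ets2 difference in normal and between 0.14 and 0.29 in PyMT fibroblasts, and between 0.06 and 0.18 for the difference of these. The largest moves were -1.09 with the mean of all probe sets, which brings in dim probe sets, and 0.29 (0.287) with each array centred on its median, which moved the median of all genes to 0.13. At 1.5-fold in place of 2-fold, 1 gene was higher without Ets2 in normal fibroblasts, and in PyMT fibroblasts 7 were higher and 1 was lower. Leaving out probe sets marked _s_ or _x_, which can match several transcripts, gave 1 gene lower without Ets2 in normal fibroblasts and 1 higher with the oncogene in Ets2-null fibroblasts, in place of 0. Both were Kif2c, whose oncogene difference there turned from -1.62 to 1.71 (1.709). With the mean of probe sets 0 genes passed 2-fold lower in the difference of Ets2 differences, in place of 1. The other 120 summary values stayed within 0.1 for medians and 1.5 times for counts. Inside that limit, the 31 of 40 genes at least 2-fold lower with the oncogene in Ets2-null fibroblasts became 25 of 40 with median centring. With the mean of probe sets they became 24 of 39, and the 31 in Ets2-present fibroblasts became 27 of 39. Besides the oncogene difference of Kif2c that turned to 1.71, 18 single-gene values moved by more than 0.5 while 1237 did not.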
